A study of Mus musculus with 2 samples.

Results

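The genes of the mitochondrial ribosomal proteins were taken as all gene symbols that begin with Mrpl or Mrps followed by a number, which gave 78 of the 32285 genes listed in the deposited matrices. Their transcripts were measured in colorectal tumours of mice by droplet single-cell RNA sequencing, with 1 library per genotype. The cKO library came from mice of genotype Mtch2fl/fl VilCre, in which both Mtch2 alleles are floxed and Cre recombinase under the Villin promoter acts in the intestinal epithelium. The WT library came from Mtch2fl/fl mice, which carry the same floxed alleles without Cre. Tumours were raised in both genotypes by AOM-DSS, the carcinogen azoxymethane followed by the colon irritant dextran sulfate sodium. Mtch2 encodes a carrier-like protein of the outer mitochondrial membrane. Tumours from groups of mice were pooled within a genotype before trypsin dissociation, so no spread between mice or tumours was available and no test between genotypes was made. Each interval below is a 95% interval that covers counting error only.

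Mitochondria carry their own ribosome, the mitoribosome, which translates the few proteins encoded by mitochondrial DNA, all of them parts of the respiratory chain or ATP synthase. Its ribosomal RNAs come from the mitochondrial genome, whereas its proteins are encoded in the nucleus, made in the cytosol and imported. The large subunit (Mrpl symbols) forms peptide bonds and the small subunit (Mrps symbols) reads the messenger RNA. Some of these proteins have counterparts in the bacterial ribosome and others are found in mitochondria alone. By the protein rather than the symbol, 51 of the 78 genes belonged to the large subunit, 26 to the small subunit and 1 to neither. Mrps30 and Mrps18a encode large subunit proteins despite their symbols, and Mrps36 encodes a subunit of the 2-oxoglutarate dehydrogenase complex.

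After filtering, 4388 cKO cells and 7245 WT cells were kept, with medians of 6927.5 and 3723 counted molecules (unique molecular identifiers, UMIs) per cell. Levels are given as counts per 1000000 UMIs of the cells summed (CPM). A UMI marks a molecule and not a length, so the values were not divided by gene length. The epithelial-like class, named like the others from marker genes, held 1539 cKO cells with 68715625 UMIs and 2534 WT cells with 90125513 UMIs. In that class Mtch2 stood at 23.4 CPM in cKO and 94.5 CPM in WT, against 41.3 CPM in cKO and 48.3 CPM in WT T-like cells. Clusters that stayed unnamed held 24.0% of cKO cells and 45.6% of WT cells, most of them in clusters of low depth that scored for epithelial markers. Cells of both sexes were found in each library, with 216 epithelial-like cells assigned female and 904 assigned male in cKO, and 706 and 881 in WT.

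Over all cells kept, epithelial-like cells had the highest summed level of the family among the cell classes found in both libraries. Neutrophil-like cells had the lowest among the 4 classes that held 100 cells or more on both sides. The family reached 4899.6 CPM (interval 4883 to 4916) in cKO epithelial-like cells and 4558 CPM (4544 to 4572) in WT epithelial-like cells. Macrophage and monocyte-like cells had 3280.3 CPM in cKO and 3289 CPM in WT, and T-like cells had 2838 CPM in cKO and 3141 CPM in WT. Neutrophil-like cells had 1643 CPM in cKO and 2036 CPM in WT. Epithelial-like cells exceeded neutrophil-like cells 2.98-fold in cKO and 2.24-fold in WT, and T-like cells 1.73-fold in cKO and 1.45-fold in WT. Epithelial-like cells were also deeper, with medians of 38884 UMIs in cKO and 30292 UMIs in WT against 7690.0 UMIs in cKO and 7442 UMIs in WT T-like cells. In cells of 5000 to 30000 UMIs the log2 ratio of epithelial-like over T-like cells was 0.16 in cKO and 0.13 in WT, and over neutrophil-like cells 1.04 in cKO and 0.94 in WT. Epithelial-like cells of that window had 3190 CPM in cKO and 3414 CPM in WT. Dendritic-like cells, not limited by depth, had more, at 3481 CPM in cKO and 3587 CPM in WT. The epithelial-like class alone had to reach the median depth of its library, so the top rank holds only for the classes as named.

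**Figure D1:**
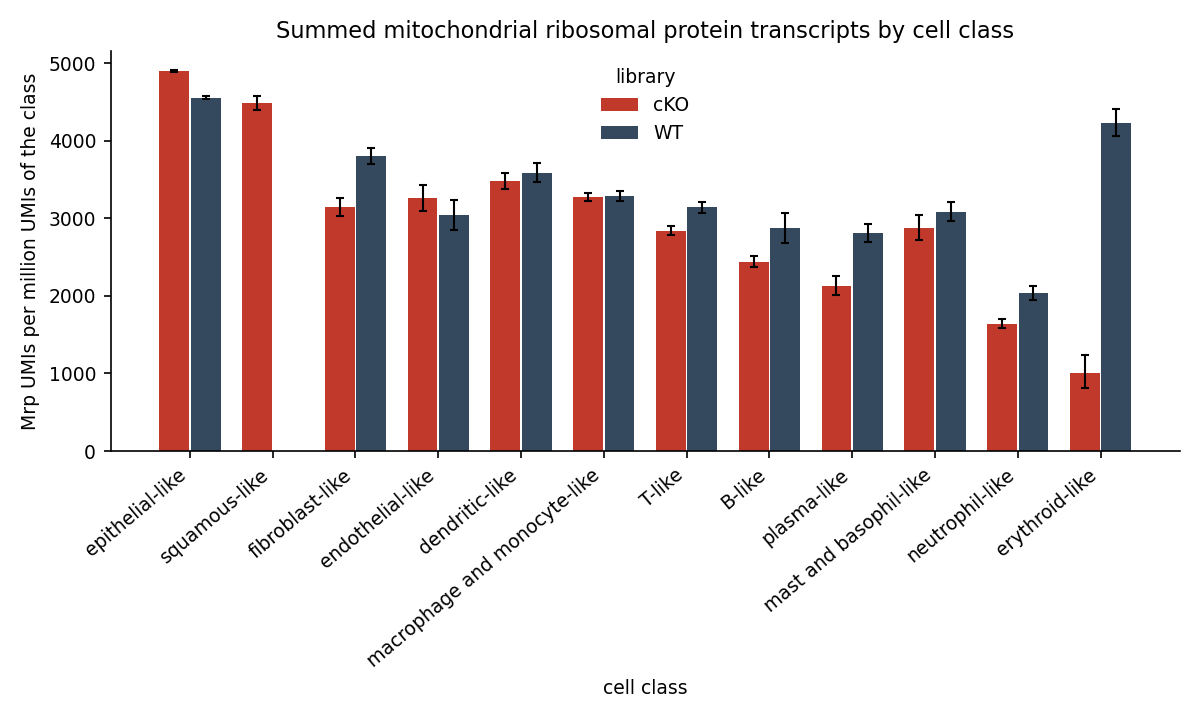
Summed level (CPM) of the 78 mitochondrial ribosomal protein genes in each cell class, in the cKO (red) and WT (dark) libraries, with 95% exact Poisson intervals. Over all cells kept, without matching of depth, epithelial-like cells stand highest among classes of both libraries at 4899.6 in cKO and 4558 in WT. Neutrophil-like cells stand at 1643 in cKO and 2036 in WT. Squamous-like cells were found in the cKO library alone and the erythroid-like class holds 17 cKO cells.

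Except for the cKO erythroid-like cells, the smaller classes lay between these levels. Dendritic-like cells had 3481 CPM in cKO and 3587 CPM in WT, and endothelial-like cells 3262 CPM in cKO and 3042 CPM in WT. Fibroblast-like cells had 3147 CPM in cKO and 3803 CPM in WT, and mast and basophil-like cells 2876 CPM in cKO and 3083 CPM in WT. B-like cells (2443 CPM in cKO and 2870.1 CPM in WT) and plasma-like cells (2133 CPM in cKO and 2808 CPM in WT), which make and secrete antibodies, lay below the T-like level of their own library. Squamous-like cells, 58 cells of the cKO library with none in WT, had 4483 CPM. Erythroid-like cells had 1011 CPM in 17 cKO cells and 4235 CPM in 49 WT cells, and the WT cells of that class also held 22548 CPM of the 10 epithelial marker genes against 2228 CPM in cKO.

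Over all cells kept, the libraries differed in opposite directions in different classes, which depended on depth and scaling. The summed level was higher in cKO in epithelial-like cells, with a log2 ratio of cKO over WT of 0.10 (0.098 to 0.11). It was lower in cKO in T-like cells, with a log2 ratio of -0.15 (-0.19 to -0.10), and in neutrophil-like cells, with -0.31 (-0.39 to -0.23). In cells of 5000 to 30000 UMIs all 3 were below 0, at -0.098 in epithelial-like, -0.13 in T-like and -0.20 in neutrophil-like cells, and median-of-ratios scaling gave -0.070 in neutrophil-like cells. In macrophage and monocyte-like cells the log2 ratio was -0.0036 (-0.039 to 0.032), so no difference was detectable at this depth. Of the 11 named classes present in both libraries, 2 were higher and 9 were lower in cKO. The epithelial marker genes, a sign of epithelial RNA in other cells, summed to 962 CPM in cKO and 1549 CPM in WT T-like cells, and to 1543 CPM in cKO and 2721 CPM in WT neutrophil-like cells. They were lower in cKO also where the family was not clearly lower. Macrophage and monocyte-like cells had 782 CPM of them in cKO and 1135 CPM in WT, and endothelial-like cells (family log2 ratio 0.10) 1023 CPM in cKO and 1851 CPM in WT. Epithelial-like cells had 11820 CPM in cKO and 12694 CPM in WT. The part of epithelial RNA in the family's differences was not tested.

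Every one of the 78 members was detected in epithelial-like cells of both libraries, and none fell under the minimum of 10 CPM. Pooled over both libraries, their epithelial levels ran from 12.2 to 172 CPM, with a median of 54.4 CPM. Over all kept cells, the 10 most abundant members were, in falling order, Mrpl52, Mrpl33, Mrps24, Mrpl20, Mrpl34, Mrps21, Mrpl12, Mrps14, Mrpl54 and Mrps33, which together gave 27.3% of the family's UMIs. The list mixes proteins with bacterial counterparts, such as Mrpl20, Mrpl33, Mrpl34, Mrps14 and Mrps21, with proteins of mitochondria alone, such as Mrpl52, Mrpl54 and Mrps33. Mrpl52 had 186 CPM in cKO epithelial-like cells and 162 CPM in WT epithelial-like cells, and Mrpl33 had 172 CPM in cKO and 161 CPM in WT. Mrps24 overlaps an exon of Urgcp on the same strand, so reads from the overlap do not tell these genes apart and its count may be affected. The same holds for Mrps6 with Slc5a3 and Mrps34 with Nme3.

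The members are scattered over 17 chromosomes, so promoter sequence was read as a feature they could share. RefSeq promoter windows of GRCm38.p6, from 250 bases before to 50 bases after the gene start, were found for 69 of the 78 members. Motifs were searched on both strands by exact letters, and an ETS match can share its last letters with the start of a YY1 match. The ETS letters CCGGAAG stood in the windows of 25 of 69 members (36.2%) and of 9.12% of all 27025 genes with a window. The YY1 letters AANATGGCG stood in 11 members (15.9%) and 2.51% of all genes, with 9 of the 11 matches beginning at or after the start. The NRF1 consensus stood in 3 members (4.35%) and 0.977% of all genes, and the E-box letters CACGTG in 5 members (7.25%) and 7.24% of all genes. The members' windows were also richer in G and C, with a median of 58.3% against 52.7% over all genes. The 120 bases before the start are shown for 5 members named in the results, with matched ETS or YY1 letters in capitals. Mrpl52 and Mrpl34 are the members higher in cKO in every epithelial subcluster compared, Mrpl53 had the highest ratio of epithelial-like over immune cells, Mrps11 holds the YY1 letters and faces Mrpl46, and Mrpl33 is the member that led in neutrophil-like cells.
Mrpl52: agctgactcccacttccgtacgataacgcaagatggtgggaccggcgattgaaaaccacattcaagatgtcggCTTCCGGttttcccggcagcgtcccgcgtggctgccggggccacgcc
Mrpl34: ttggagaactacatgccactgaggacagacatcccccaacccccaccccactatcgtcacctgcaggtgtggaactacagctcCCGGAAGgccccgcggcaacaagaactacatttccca
Mrpl53: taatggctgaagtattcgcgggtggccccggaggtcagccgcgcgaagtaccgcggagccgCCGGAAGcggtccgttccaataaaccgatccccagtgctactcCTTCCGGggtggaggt
Mrps11: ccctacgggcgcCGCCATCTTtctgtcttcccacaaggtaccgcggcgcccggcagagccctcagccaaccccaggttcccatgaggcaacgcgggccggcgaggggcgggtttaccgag
Mrpl33: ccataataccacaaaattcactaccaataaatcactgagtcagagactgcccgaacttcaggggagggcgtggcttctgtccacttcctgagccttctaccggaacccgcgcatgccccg
These stretches lie at chr14:54426789-54426908 on the plus strand (Mrpl52), chr8:71464806-71464925 plus (Mrpl34), chr6:83108988-83109107 plus (Mrpl53), chr7:78783011-78783130 plus (Mrps11) and chr5:31613831-31613950 plus (Mrpl33). The stretch of Mrpl33 holds none of the letters searched, and its single ETS match begins 3 bases before the start and runs past it. A match describes letters only and was not read as a site.

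Over all epithelial-like cells, most members were slightly higher in cKO. Of the 78 members, 70 were higher and 8 lower in cKO, where 43.6% of all 9233 features at 10 CPM or more were higher and 56.4% lower. Their median log2 ratio was 0.093, against -0.022 over all features. The interval of the ratio lay above 0 for 52 members, where 25.7% of all features did so, and below 0 for 1 member, where 36.3% did so. No member was higher by 1.2-fold (4.44% of all features) or lower by 1.2-fold (7.26%), and hence none by 1.5-fold either way (0.596% higher and 1.05% lower). The ratios ran from -0.078 to 0.23 on the log2 scale. The direction held for all cells kept and not at lower depth: in cells of 5000 to 30000 UMIs, 17 of 77 members tested were higher in cKO, where 47.3% of all 9329 features were, and 60 were lower, where 52.7% were. The median member was then -0.12, against -0.013 over all features, with 1 member higher by 1.2-fold (12% of all features) and 9 lower (11.2%).

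The largest ratio belonged to Mrpl18, a large subunit protein with a bacterial counterpart, at 93.7 CPM in cKO and 79.8 CPM in WT epithelial-like cells (log2 ratio 0.23, 0.18 to 0.28). Mrps25, of the small subunit, had 48.0 CPM in cKO and 41.3 CPM in WT (0.22, 0.15 to 0.29), and the ratio of Mrpl52 was 0.20 (0.17 to 0.24). Mrpl49 had 28.6 CPM in cKO and 24.9 CPM in WT (0.20, 0.12 to 0.29). Mrpl11, which sits at the factor-binding stalk of the large subunit, had 58.9 CPM in cKO and 51.4 CPM in WT (0.20, 0.13 to 0.26). All 5 of these intervals lay above 0. In cells of 5000 to 30000 UMIs, however, the log2 ratios of Mrpl18 (-0.16), Mrps25 (-0.19), Mrpl49 (-0.24) and Mrpl11 (-0.11) were below 0.

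At the other end, Mrpl48 had 52.0 CPM in cKO and 54.9 CPM in WT (-0.078, -0.14 to -0.015). It was the single member whose interval lay below 0, and the annotation lists a pseudogene under its symbol, with which reads could be shared. The intervals of the next members spanned 0. Mrpl16 had 25.9 CPM in cKO and 27.1 CPM in WT (-0.067, -0.16 to 0.021), Mrpl46 25.2 CPM in cKO and 25.8 CPM in WT (-0.033, -0.12 to 0.058), and Mrpl37 22.3 CPM in cKO and 22.6 CPM in WT (-0.020, -0.12 to 0.076). Mrps18b had 34.3 CPM in cKO and 34.7 CPM in WT (-0.014, -0.092 to 0.064).

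**Figure D2:**
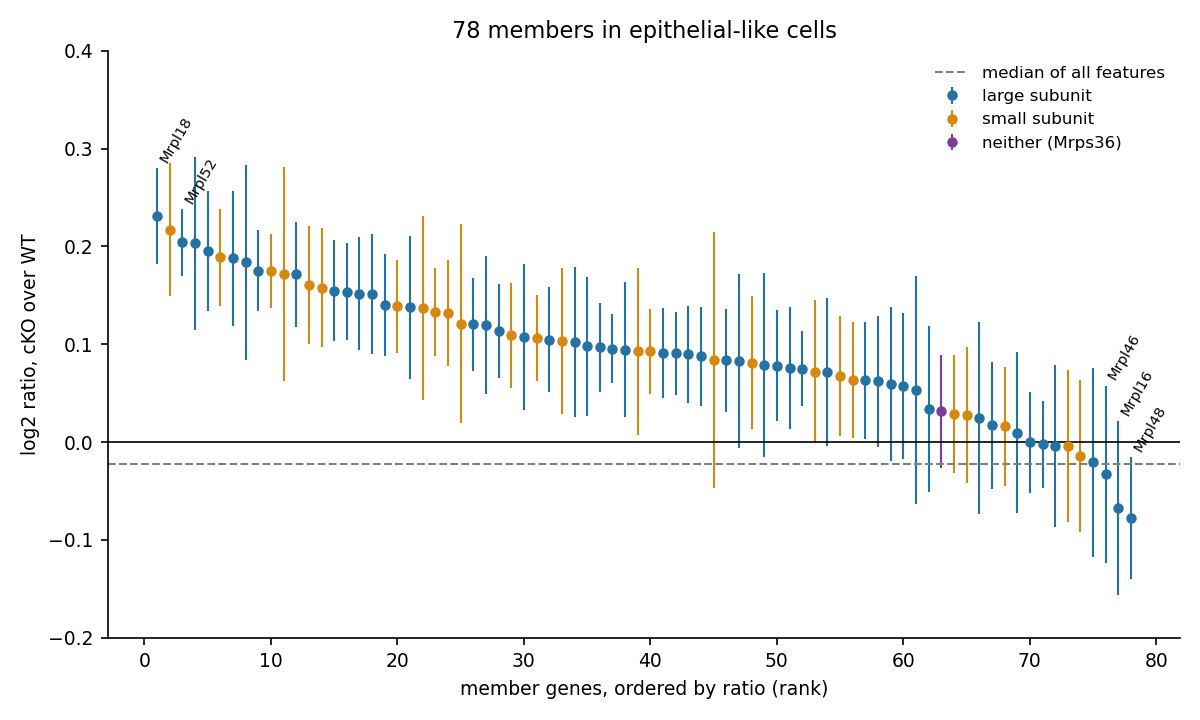
Log2 ratio of cKO over WT in epithelial-like cells for each of the 78 members, ordered by ratio, with 95% exact intervals and the subunit in colour; the dashed line is the median of all 9233 features (-0.022). The ratios run from 0.23 (Mrpl18) to -0.078 (Mrpl48), 70 of them above 0, and large and small subunit members are mixed along the order.

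The subunits gave similar ratios. The large subunit summed to 3281 CPM in cKO and 3057 CPM in WT epithelial-like cells, a log2 ratio of 0.10 (0.094 to 0.11), with 45 of 51 members higher in cKO. The small subunit summed to 1556 CPM in cKO and 1441 CPM in WT, a log2 ratio of 0.11 (0.0995 to 0.12), with 24 of 26 members higher. Among all features at 10 CPM or more, 43.6% were higher. The ratio of large to small subunit UMIs was 2.11 (2.09 to 2.12) in cKO and 2.12 (2.11 to 2.14) in WT epithelial-like cells. Counting subunits by symbol alone gave 1.89 in both libraries. The excess of the large subunit went with its larger number of genes, since the mean per member was 64.3 CPM in cKO and 59.9 CPM in WT for the large subunit, and 59.9 CPM in cKO and 55.4 CPM in WT for the small subunit.

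Of the 7 members named for their known roles, Mrpl12, Mrpl58 and Mrps18a had intervals above 0 and the other 4 spanned 0. Mrpl12, the stalk protein that also binds the mitochondrial RNA polymerase in human cells, had 119.6 CPM in cKO and 112 CPM in WT (log2 ratio 0.091, 0.048 to 0.13). Mrpl58, which can release stalled peptides from the ribosome, had 58.3 CPM in cKO and 55.8 CPM in WT (0.063, 0.0027 to 0.12). The 3 paralogs of the Mrps18 group, which occupy different places in the ribosome, had ratios of 0.076 (Mrps18a, 0.014 to 0.14), -0.014 (Mrps18b) and 0.016 (Mrps18c, -0.044 to 0.077). Mrps30 had 24.1 CPM in cKO and 22.8 CPM in WT (0.079, -0.016 to 0.17). Mrps36, which belongs to the other complex, had 62.5 CPM in cKO and 61.1 CPM in WT (0.032, -0.026 to 0.089), and has pseudogenes under its symbol.

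The level of the family varied far more between epithelial subclusters than between libraries. The 15 subclusters, formed without the Mrp genes, are called by a leading gene or by their markers. The subcluster led by Fut9 and Lgr6, which carried 1236 CPM of mitotic marker genes in cKO and 974 CPM in WT, stood highest at 6469 CPM in cKO and 5987 CPM in WT. The mitotic-like subcluster led by Top2a followed at 5813 CPM in cKO and 5386 CPM in WT, with 46 cKO cells and 85 WT cells. The absorptive-like subcluster led by Car4, a carbonic anhydrase of mature colonocytes, stood lowest at 2075 CPM in cKO and 1806 CPM in WT. The Fut9 and Lgr6 subcluster exceeded the Car4 subcluster 3.12-fold in cKO and 3.31-fold in WT. Median depth was 48996.5 UMIs in cKO and 42134 UMIs in WT in the Fut9 and Lgr6 subcluster, against 8522 UMIs in cKO and 6669 UMIs in WT in the Car4 subcluster. In cells of 30000 UMIs or more the folds were 2.22 in cKO and 1.80 in WT, with 12 cKO and 3 WT cells left in the Car4 subcluster. The Car4 subcluster also differed in make-up, with 14.2% of UMIs mitochondrially encoded in cKO and 14.5% in WT. Cytosolic ribosomal proteins took 3.21% in cKO and 3.13% in WT. Whether this reflects the quality or the state of the cells was not tested.

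**Figure D3:**
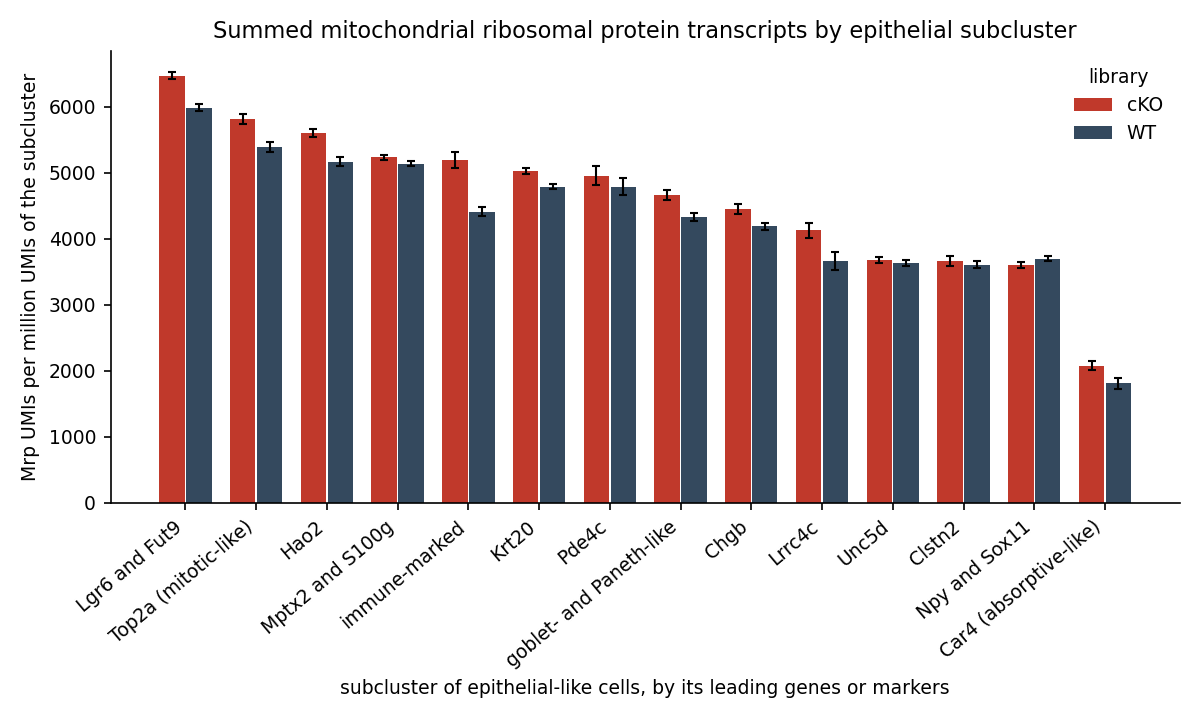
Summed level (CPM) of the mitochondrial ribosomal protein genes in 14 subclusters of epithelial-like cells, cKO in red and WT dark, ordered by the cKO level, with 95% exact Poisson intervals. The level falls to 2075 in cKO and 1806 in WT in the Car4 subcluster, against 6469 in cKO and 5987 in WT in the Fut9 and Lgr6 subcluster; the Ncam2 subcluster, with 1 cKO cell, is not drawn.

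Between these ends, the subcluster led by Hao2 had 5601 CPM in cKO and 5166 CPM in WT, that of Mptx2 and S100g 5233 CPM in cKO and 5136 CPM in WT, and that of Krt20, a keratin of surface cells, 5023 CPM in cKO and 4789.7 CPM in WT. Goblet- and Paneth-like cells, which secrete mucus and antimicrobial peptides, had 4658 CPM in cKO and 4328 CPM in WT. The subclusters of Unc5d (3678 CPM in cKO and 3633 CPM in WT), Clstn2 (3659 CPM in cKO and 3608 CPM in WT) and Npy and Sox11 (3605 CPM in cKO and 3698 CPM in WT) formed a low group. Lgr5, a receptor that marks intestinal stem cells, was highest among the 8 subclusters compared in the Unc5d and Clstn2 subclusters. It had 619 CPM in cKO and 593 CPM in WT in the Unc5d subcluster, and 536 CPM in cKO and 564 CPM in WT in the Clstn2 subcluster. The Npy and Sox11 subcluster had 124 CPM of Lgr5 in cKO and 218 CPM in WT, against 170 CPM in cKO and 155 CPM in WT in the Fut9 and Lgr6 subcluster.

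Of the 8 subclusters with at least 100 cells in each library, the summed level was higher in cKO in 7. The interval of the log2 ratio lay above 0 in 5, namely the Car4 (0.20, 0.12 to 0.28), Hao2 (0.12, 0.092 to 0.14), Fut9 and Lgr6 (0.11, 0.096 to 0.13), Krt20 (0.068, 0.052 to 0.085) and Mptx2 (0.027, 0.011 to 0.043) subclusters. It spanned 0 in the Clstn2 (0.020, -0.016 to 0.056) and Unc5d (0.018, -0.0082 to 0.044) subclusters. In the Npy and Sox11 subcluster it lay below 0 (-0.037, -0.059 to -0.015). In cells of 30000 UMIs or more the interval of the Mptx2 subcluster spanned 0 (0.012, -0.0047 to 0.028), that of Unc5d lay above 0 (0.080, 0.051 to 0.11), and those of Clstn2 (-0.057, -0.099 to -0.016) and Car4 (-0.22, -0.39 to -0.052) lay below 0. The last 3 fell under 100 cells per library there, with 87 cKO and 97 WT cells in Unc5d, 33 and 70 in Clstn2, and 12 and 3 in Car4. Member by member, 68 of 78 were higher in cKO in the Fut9 and Lgr6 subcluster and 65 of 78 in the Hao2 subcluster, where 45.2% and 51.8% of all features were higher. In the Npy and Sox11 subcluster 26 of 77 members tested were higher, where 40.7% of all features were. The Mptx2 subcluster, despite its higher sum, had 36 members higher and 42 lower (44.0% of all features higher). Higher members numbered 53 of 77 in the Krt20 (41.1% of all features) and 45 of 65 in the Car4 subcluster (51.1%). They numbered 38 of 78 in the Clstn2 (48.7%) and 41 of 78 in the Unc5d subcluster (51.9%). Mrpl34 and Mrpl52 were higher in cKO in all 8 subclusters, and no member was lower in all 8.

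The members' levels went together across subclusters. Over 16 points, which are the 8 subclusters in each of the 2 libraries, the small subunit sum followed the large subunit sum with a Pearson r of 0.996. The points share libraries, depth and the cells clustered, so this and the following values describe them only. They include the Car4 subcluster, which was the lowest for the family, and no r was taken without it. A member's level correlated with the sum of the other members with a median r of 0.94, over 0.9 for 55 members and over 0.8 for 73. The least alike were Mrpl14 (0.45) and Mrps6 (0.53), the gene that overlaps Slc5a3. The ratio of large to small subunit stayed between 2.01 and 2.21 in cKO and between 2.04 and 2.33 in WT subclusters.

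The difference between libraries changed with the depth of the cells. The family had 2366 CPM in cKO and 3018 CPM in WT epithelial-like cells of under 5000 UMIs, and was lowest between 5000 and 10000 UMIs, at 1679 CPM in cKO and 2552 CPM in WT. From there it was higher in each deeper bin, up to 5687 CPM in cKO and 5292 CPM in WT cells of 100000 UMIs or more. The log2 ratio was -0.60 (-0.69 to -0.52) between 5000 and 10000 UMIs, -0.043 (-0.091 to 0.0052) between 10000 and 20000, -0.11 (-0.13 to -0.076) between 20000 and 30000, -0.024 (-0.036 to -0.011) between 30000 and 50000, 0.13 (0.12 to 0.14) between 50000 and 100000, and 0.10 (0.090 to 0.12) above that. Over all cells of 5000 to 30000 UMIs it was -0.098. The Car4 subcluster held 22.8% of the cKO cells and 10.2% of the WT cells in that window, and the log2 ratio without it was -0.024. The sum was higher in cKO in the bins of 50000 UMIs or more and lower in each bin below. What part the unequal depth of the libraries has in the ratio was not tested.

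**Figure D4:**
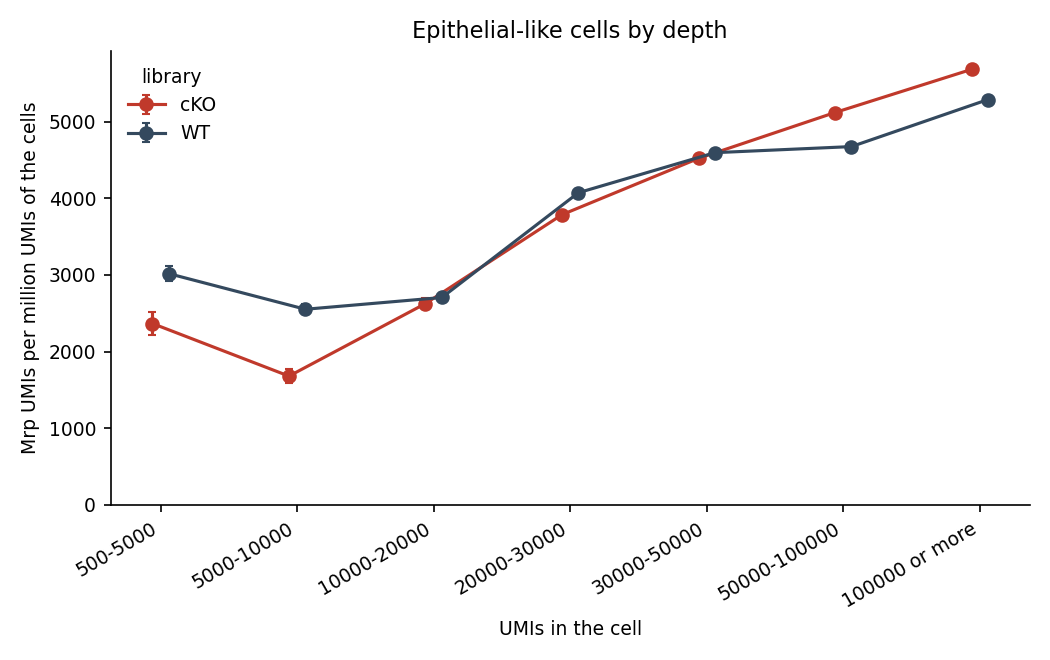
Summed level of the mitochondrial ribosomal protein genes in epithelial-like cells grouped by the UMIs counted in the cell, cKO in red and WT dark, with 95% exact Poisson intervals. The WT library stands higher in the bins under 50000 UMIs, with 2366 in cKO and 3018 in WT in the lowest bin, and the cKO library stands higher in the deepest cells, at 5687 against 5292 in WT.

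Cell to cell, the spread was wider than the difference between libraries. Among the 1367 cKO and 2160 WT epithelial-like cells of 5000 UMIs or more, the median was 4198 CPM in cKO, with the middle of the cells between 3061 and 5513 CPM, and 4012 CPM in WT, between 2937 and 5093 CPM. These cells are not replicates of a genotype. Cells assigned female gave a log2 ratio of 0.094 (0.078 to 0.11) and cells assigned male 0.089 (0.079 to 0.098).

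Most cytosolic ribosomal, nucleolar and mitochondrially encoded genes were higher in cKO over all epithelial-like cells. Of all 9233 features at 10 CPM or more, 43.6% were higher and 56.4% lower. Of 82 cytosolic ribosomal protein genes at 10 CPM or more, 80 had a ratio above 0 and 2 below (median log2 ratio 0.16), and they took 13.3% of UMIs in cKO and 11.9% in WT. Of 20 nucleolar ribosome biogenesis genes, 18 were higher in cKO (median 0.13), with Npm1, a nucleolar chaperone, at 957 CPM in cKO and 742 CPM in WT (0.37, 0.35 to 0.38), and Wdr43 lowest (-0.071, -0.12 to -0.022). Of the 13 proteins encoded by mitochondrial DNA, which mitoribosomes translate, 11 were higher and 2 lower (median 0.23), and their transcripts took 6.07% of UMIs in cKO and 5.16% in WT. Among them mt-Nd4 had 3628 CPM in cKO and 2795 CPM in WT (0.38, 0.37 to 0.38) and mt-Nd6 was the lowest of them (-0.10, -0.16 to -0.044). By depth, the cytosolic ribosomal and nucleolar sums were higher in cKO in the bins of 30000 UMIs or more and lower in each bin below. Between 5000 and 10000 UMIs cytosolic ribosomal proteins took 2.95% of UMIs in cKO and 5.76% in WT. The nucleolar sum there was 813 CPM in cKO and 1329 CPM in WT. The mitochondrially encoded proteins were higher in cKO in every bin.

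The lists of mitoribosome partners were more mixed in count, and no test compares them with the lists above. The share of all features beside these counts is again 43.6% higher and 56.4% lower. Of 5 further mitoribosome subunits without an Mrp symbol, 3 were higher and 2 lower in cKO (median 0.028), from Chchd1 at 97.0 CPM in cKO and 83.1 CPM in WT (0.22, 0.18 to 0.27) to Dap3 at 66.9 CPM in cKO and 69.5 CPM in WT (-0.056, -0.11 to -0.00095). Of 24 assembly factors, 14 passed 10 CPM, of which 10 were higher and 4 lower (median 0.091), from Fastkd2 (0.36, 0.23 to 0.49), an RNA-binding protein of the large subunit's assembly, to Mettl17 (-0.21, -0.35 to -0.072). Of 15 translation factors, 13 passed, with 10 higher and 3 lower (median 0.092), from the elongation factor Tsfm (0.19, 0.12 to 0.27) to the insertase Oxa1l (-0.049, -0.14 to 0.039).

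Of 20 mitochondrial aminoacyl-tRNA synthetase and amidotransferase genes, 11 passed, with 9 higher and 2 lower (median 0.079), from Yars2 (0.18, 0.056 to 0.29) to Iars2 (-0.076, -0.15 to -0.0059). Of 10 genes that maintain or express mitochondrial DNA, 6 passed, with 4 higher and 2 lower (median 0.10), from Ssbp1 (0.20, 0.15 to 0.25), the single-stranded DNA binding protein, to Polg2 (-0.12, -0.24 to -0.0026). The median over all features was -0.022, with 43.6% higher and 56.4% lower. Fastkd2 and 1 further assembly factor were higher by 1.2-fold among these 5 lists (4.44% of all features), and none was lower by 1.2-fold (7.26%).

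Over the same 16 points, the family's sum went with that of the cytosolic ribosomal proteins (r = 0.98), the other mitoribosome subunits (0.96), the translation factors (0.94), the nucleolar genes (0.91), the mitotic markers (0.84), median depth (0.83) and the assembly factors (0.81). With the proteins encoded by mitochondrial DNA r was -0.72. The Car4 subcluster stood apart there, at 141733 CPM in cKO and 145178 CPM in WT, the next highest point being Clstn2 in cKO (77666 CPM). Its points were also the lowest for the family (2075 CPM in cKO and 1806 CPM in WT) and for the nucleolar genes (498 CPM in cKO and 491 CPM in WT). The same held for the assembly factors (149 CPM in cKO and 136 CPM in WT) and the cytosolic ribosomal proteins. No r was taken without the Car4 points. Neither the positive r values nor an inverse relation are therefore read across the other subclusters. The aminoacyl-tRNA synthetases gave -0.76 as a list and 0.67 without Lars2, which alone gave -0.83 and is among the leading genes of 2 unnamed clusters of low depth. That list was also highest in the Car4 subcluster, at 1176 CPM in cKO and 1971 CPM in WT, followed by Clstn2 in cKO (580 CPM). The Lgr5-high stem cell markers gave 0.085.

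Over all cells kept, without matching of depth, epithelial-like cells had higher levels of nearly the whole family than the immune classes summed. Epithelial-like cells also had a higher median depth than each immune class in both libraries. In the depth window used for the classes above, the family's excess over T-like and neutrophil-like cells was smaller in both libraries. The member counts and ratios below were not matched for depth. Over both libraries, 76 members were higher in epithelial-like cells, where 68.1% of all 9520 features were, and 2 were lower, where 31.9% were, with a median log2 ratio of 0.81 against 0.40 over all features. The highest ratios were those of Mrpl53, at 87.3 CPM in epithelial-like and 27.0 CPM in immune cells (1.69, 1.58 to 1.81), and Mrpl12, at 115 CPM in epithelial-like and 37.0 CPM in immune cells (1.64, 1.54 to 1.74). Mrps35 (1.47), Mrpl34 (1.45) and Mrps5 (1.40) followed. Mrpl12 stayed low in each immune class, with 32.2 CPM in cKO and 37.6 CPM in WT T-like cells, and 13.8 CPM in cKO and 23.4 CPM in WT neutrophil-like cells.

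The exceptions were Mrps28, at 83.8 CPM in epithelial-like and 110.0 CPM in immune cells (-0.39, -0.45 to -0.33), and Mrpl33, at 165 CPM in epithelial-like and 187 CPM in immune cells (-0.18, -0.22 to -0.13). The next lowest ratios were those of Mrpl1 (0.071, -0.034 to 0.18), Mrpl52 (0.16, 0.11 to 0.21) and Mrpl4 (0.24, 0.13 to 0.35). Mrpl52 was the highest member of macrophage and monocyte-like cells, with 247 CPM in cKO and 193 CPM in WT.

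Mrpl33 dominated the family in neutrophil-like cells. It had 553 CPM (519.7 to 587) in cKO neutrophil-like cells and 497 CPM (452 to 546) in WT neutrophil-like cells, against 172 CPM in cKO and 161 CPM in WT epithelial-like cells, in a class whose family sum was the lower. It made up 33.6% (32.0 to 35.3) of the family's UMIs in cKO and 24.4% (22.5 to 26.5) in WT neutrophil-like cells. In epithelial-like cells its share was 3.50% in cKO and 3.52% in WT, and in T-like cells 6.90% in cKO and 6.36% in WT. The gene is annotated over 67450 bases of chromosome 5 (GRCm38, chr5:31596935-31664384, plus strand). No other gene listed in the deposited matrices overlaps it on the same strand. The RefSeq start used for its promoter stretch lies inside this span and differs from its annotated start.

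Mrps28, a small subunit protein, was the next member in neutrophil-like cells. It had 147 CPM (130.03 to 165) in cKO and 128 CPM (106 to 154) in WT neutrophil-like cells. It made up 8.94% of the family's UMIs in cKO and 6.30% in WT, against 1.84% in cKO and 1.73% in WT epithelial-like cells. In macrophage and monocyte-like cells it had 195 CPM in cKO and 158 CPM in WT, whereas T-like cells had 48.7 CPM in cKO and 45.4 CPM in WT. Its annotated span is 121773 bases on chromosome 3 (chr3:8802146-8923918, minus strand).

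**Figure D5:**
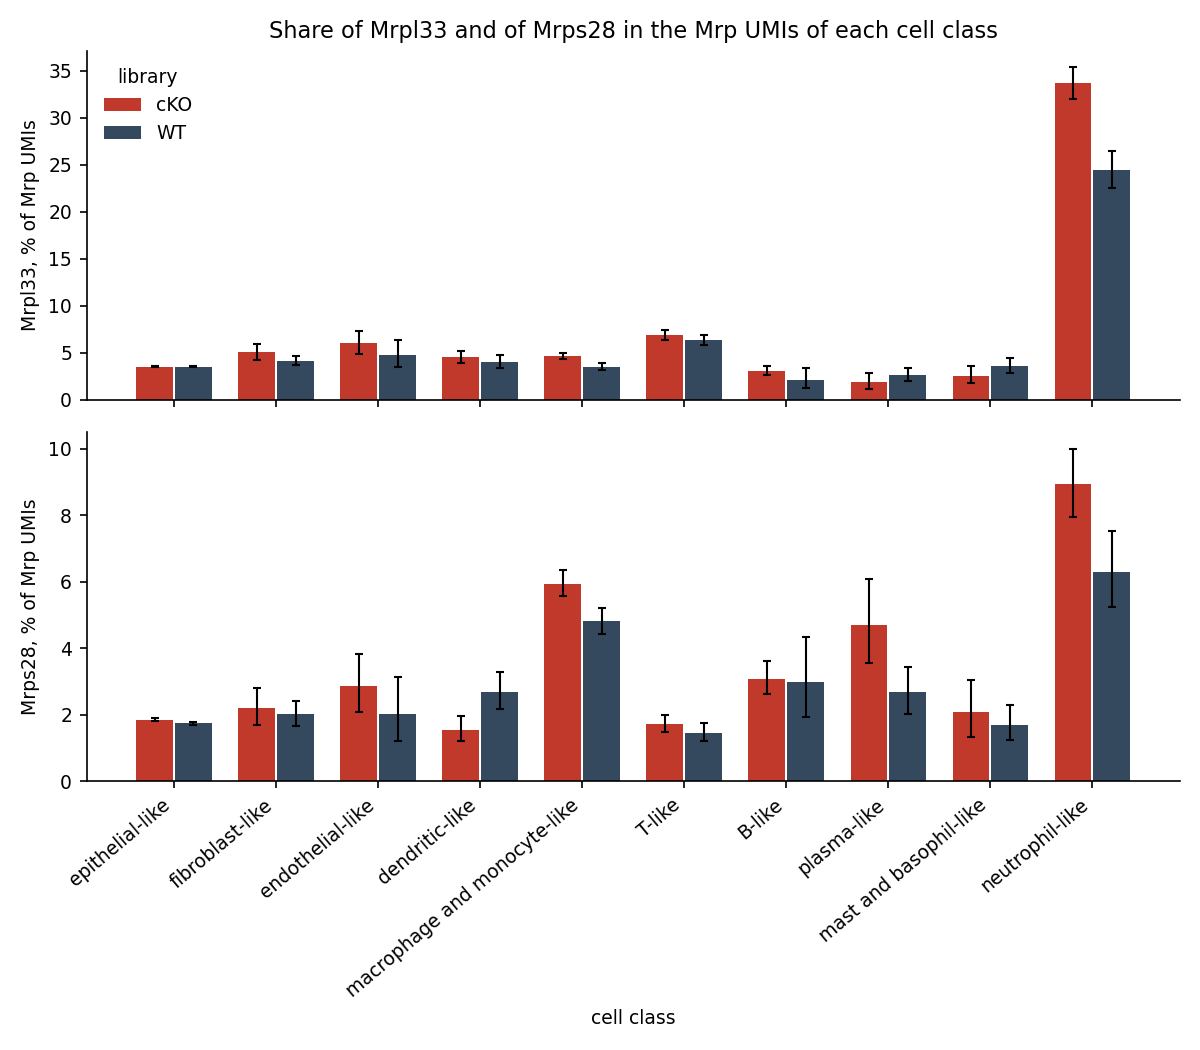
Share of Mrpl33 (top) and Mrps28 (bottom) in the UMIs of the mitochondrial ribosomal protein genes of each class, in percent, cKO in red and WT dark, with 95% exact binomial intervals. Mrpl33 makes up 33.6% in cKO and 24.4% in WT neutrophil-like cells and at most 6.90% in cKO and 6.36% in WT in the other classes drawn; Mrps28 is highest in neutrophil-like cells, followed by macrophage and monocyte-like cells.

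The 2 neutrophil-like clusters differed. In the larger, led by Retnlg and S100a9, Mrpl33 had 611 CPM in cKO and 608 CPM in WT, with shares of 37.5% (35.7 to 39.4) and 30.3% (27.9 to 32.8). In the smaller, led by Ccl3 and Il1f9, it had 141 CPM (97.0 to 198) in cKO and 102 CPM (62.2 to 157) in WT, with shares of 8.15% (5.68 to 11.3) and 4.76% (2.93 to 7.26), from 33 and 20 UMIs. The large to small subunit ratio of neutrophil-like cells, 2.67 (2.46 to 2.89) in cKO and 2.59 (2.34 to 2.88) in WT, was 1.43 in cKO and 1.71 in WT without Mrpl33. Without both Mrpl33 and Mrps28 it was 2.13 in cKO and 2.21 in WT. In the other classes, erythroid-like cells left out, it lay between 1.77 and 2.35 in cKO and between 1.80 and 2.12 in WT, with T-like cells at 1.86 in cKO and 1.90 in WT.

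In T-like cells the members that could be read leaned downward in cKO. Of 75 at 10 CPM or more, 16 were higher (48.8% of all features) and 59 lower (51.2%). Their median log2 ratio was -0.18, against -0.0074 over all 8653 features. The interval lay below 0 for 10 members (10.6% of all features) and above 0 for none (9.74%). By 1.2-fold, 23 were lower (18.2%) and none higher (15.8%), and by 1.5-fold 1 was lower (3.87%) and none higher (3.19%). Mrps18b had 10.0 CPM in cKO and 16.5 CPM in WT, and Mrpl34 31.0 CPM in cKO and 44.2 CPM in WT (-0.51). The 3 remaining members lay under 10 CPM.

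Macrophage and monocyte-like cells showed no common direction, with 30 of 75 members tested higher (44.3% of all features) and 45 lower (55.7%), and a median of -0.092 against -0.040 over all 8244 features. The interval lay above 0 for 5 members (13.8%) and below 0 for 6 (17.5%). By 1.2-fold, 8 were higher (16.4%) and 17 lower (23.0%), and by 1.5-fold none was higher (5.0%) and 1 lower (5.75%). Mrpl33 (151 CPM in cKO and 115 CPM in WT, 0.39), Mrpl52 (0.36) and Mrps28 (0.30) were higher in cKO.

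In neutrophil-like cells 44 of the 78 members passed 10 CPM, of which 8 were higher in cKO (29.4% of all 6670 features) and 36 lower (70.6%). Their median was -0.54 against -0.24 over all features. By 1.5-fold, 21 were lower (22.8%) and none higher (4.54%), and by 1.2-fold 29 were lower (48.0%) and 2 higher (13.1%). The interval lay below 0 for 11 members (21.8%) and above 0 for none (5.35%). With few UMIs behind each member and 34 members under the minimum, these counts describe the class only. The log2 ratios of Mrpl33 (0.15) and Mrps28 (0.19) were above 0 while the family sum was lower. Without these 2 genes the log2 ratio of the sum was -0.58, and scaling by the median of gene ratios in place of the total made it -0.070 with all members. Neutrophil markers took 115399 CPM in cKO and 67572 CPM in WT neutrophil-like cells, and the part of that difference in the family's share was not tested.

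Some members share a start region with another gene. For 33 of the 78, a protein-coding gene starts within 1000 bases on the other strand, a share that was not counted over all genes. For 1 pair, Mrpl46 and Mrps11 on chromosome 7, both are members. The starts of this pair lie 412 bases apart, and their log2 ratios in epithelial-like cells were -0.033 and 0.14 (0.043 to 0.23). Of the partner genes, 19 reached 10 CPM in a library, 11 of them higher and 8 lower in cKO. Among all features at 10 CPM or more over both libraries, 43.6% were higher and 56.4% lower. For 8 of the 19 the partner and the member had opposite signs. The 19 include Mrpl46 and Mrps11 themselves, and no such count was made over other gene pairs. Rab6a, beside Mrpl48, had 256 CPM in cKO and 288 CPM in WT (-0.17, -0.19 to -0.14), and Fau, beside Mrpl49, encodes a cytosolic ribosomal protein and had 1863 CPM in cKO and 1744 CPM in WT (0.095, 0.085 to 0.11). Tcp1, a chaperonin subunit beside Mrpl18, had 180.3 CPM in cKO and 163 CPM in WT (0.15, 0.11 to 0.18).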

How the data were processed

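Each library was a pool of tumours from several mice, dissociated with trypsin and run on the 10x platform. The deposited matrices hold whole-number UMI counts per gene and barcode. Per the file headers the matrices come from Cell Ranger 7.2.0; the mm10 build and Seurat 3.0 are named in the submitters' processing notes. The members and all lists were chosen with earlier results of these data known.

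Barcodes with at least 500 genes and at most 25% mitochondrial UMIs were kept, and the barcodes with the highest doublet scores were removed (0.8% per 1000 barcodes, 362 in cKO and 714 in WT), leaving 4388 of 6723 cKO barcodes and 7245 of 9445 WT barcodes. The libraries share 22 barcodes. Cells were clustered together without the Mrp genes, Mtch2, sex-linked and immune receptor genes (2000 variable genes, 30 principal components, 20 neighbours, Leiden resolution 1), and epithelial-like cells were clustered again. A cluster was named where its marker score stood 4 log2 units above the mean of clusters and 2 above the next class; epithelial-like needed a score of 0.4, no other class at 1.5, and a median depth at or above its library's. These limits were set after seeing the data, and a different naming would move cells between classes.

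Levels are UMI counts per 1000000 UMIs of a class (CPM). Log2 ratios are cKO over WT with 0.5 added to each count. Features at 10 CPM or more over both libraries were counted. Intervals are 95%, exact Poisson for levels, conditional binomial for ratios and Clopper-Pearson for shares, and cover counting error only. With 1 library per genotype no test was made. Named members were the 10 highest, the 5 highest and 5 lowest ratios of genotypes and of epithelial-like over immune classes with at least 100 UMIs, and members with known roles. Cytosolic ribosomal proteins leave out the Rps6k kinases and Rps19bp1. Gene positions come from the GENCODE vM21 annotation of GRCm38 and promoter windows from RefSeq. The ratio code was tested on simulated data. Alternatives changed the barcodes, weights, scaling, class gate, depth, sex of the cells and members. Python 3.11.15, numpy 2.4.6, pandas 2.3.3, SciPy 1.17.1, scanpy 1.11.5, leidenalg 0.10.2, scikit-learn 1.9.0 and matplotlib 3.10.9 were used.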

Additional observations from a re-analysis of the deposited data

Results flagged for a closer look

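The summed level of the mitochondrial ribosomal protein genes differed between libraries in opposite directions in different cell classes. The log2 ratio of cKO over WT was 0.10 in epithelial-like cells, -0.31 in neutrophil-like cells and -0.15 in T-like cells. The directions depended on depth and scaling: in cells of 5000 to 30000 UMIs the ratio was -0.098 in epithelial-like, -0.20 in neutrophil-like and -0.13 in T-like cells, and median-of-ratios scaling gave -0.070 in neutrophil-like cells. With 1 library per genotype the difference between these ratios was not tested.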

How the results depend on the processing

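No paired analysis was possible because each genotype has 1 library and the labels carry no replicate numbers; for the same reason no library could be left out. Of the values for sums, subunit ratios, lists and counts under the alternatives, 166 stayed within their counting interval or count limit, 98 moved and 5 changed sign; of those for named genes 275 stayed, 57 moved and 23 changed sign. In the following, ratios of genotypes are log2 cKO over WT and ratios of classes log2 epithelial-like over the other class. The cause of these shifts was not tested.

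Depth changed the direction. In cells of 5000 to 30000 UMIs the epithelial-like sum gave -0.098 and the median member -0.12, with 17 members higher in cKO, 1 higher by 1.2-fold and 9 lower by 1.2-fold. There Mrps14 (-0.21), Mrps5 (-0.018), Mrps21 (-0.14), Mrpl20 (-0.20), Mrpl33 (-0.030), Mrps33 (-0.15), Mrpl53 (-0.067), Mrps25 (-0.19), Mrpl34 (-0.030), Mrpl12 (-0.15), Mrpl18 (-0.16), Mrps18a (-0.011), Mrpl11 (-0.11) and Mrpl49 (-0.24) changed sign. The neutrophil-like sum was -0.20, the large to small ratio of epithelial-like cells 2.07 in cKO and 2.09 in WT, the ratio over T-like cells 0.16 in cKO and 0.13 in WT, and over neutrophil-like cells 1.04 in cKO and 0.94 in WT. Chosen after seeing the data, the same window outside the Car4 subcluster gave a sum of -0.024 and a median of -0.033, and cells of 30000 UMIs or more a sum of 0.094, with -0.22 in the Car4, -0.057 in the Clstn2, 0.086 in the Fut9 and Lgr6 and 0.080 in the Unc5d subcluster.

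Weighting mattered in size. The mean of per-cell values gave 0.064 for the epithelial-like sum, 0.062 for the median member, -0.081 in macrophage and monocyte-like cells, large to small ratios of 2.07 in cKO and 2.09 in WT, 0.56 in cKO and 0.35 in WT over T-like cells, 1.27 in cKO and 0.90 in WT over neutrophil-like cells, and Mrps18a at -0.0079. List medians were then 0.13 for translation factors, 0.14 for mitochondrially encoded proteins, 0.081 for nucleolar genes and 0.13 for cytosolic ribosomal proteins. Equal weights of clusters gave 0.063 for the sum, 0.057 for the median member, 0.64 in cKO and 0.42 in WT over T-like cells, 1.44 in cKO and 1.07 in WT over neutrophil-like cells, Mrpl12 at -0.037 and Mrps18a at -0.0050, with list medians of 0.15 (mitochondrially encoded), 0.042 (nucleolar) and 0.096 (cytosolic ribosomal).

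Median-of-ratios scaling gave 0.13 for the epithelial-like sum, 0.11 for the median member, 0.037 in macrophage and monocyte-like and -0.070 in neutrophil-like cells. A total without mitochondrial, ribosomal, haemoglobin and immunoglobulin genes gave 0.14, a median of 0.13, 1 member higher by 1.2-fold, 0.85 over T-like cells in cKO, and 1.80 in cKO and 1.34 in WT over neutrophil-like cells. All deposited barcodes gave 0.093 in epithelial-like, -0.23 in T-like and -0.16 in neutrophil-like cells, 0.74 in cKO and 0.42 in WT over T-like cells, and 1.40 over neutrophil-like cells in cKO. A marker gate per cell gave 0.096 in epithelial-like and -0.25 in T-like cells, 0.75 in cKO and 0.40 in WT over T-like cells, and 1.52 in cKO and 1.05 in WT over neutrophil-like cells.

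Cells assigned female gave 0.094 in epithelial-like, 0.034 in macrophage and monocyte-like and -0.029 in neutrophil-like cells, 7 members higher by 1.2-fold, a large to small ratio of 2.14 in cKO epithelial-like cells and of 3.09 in cKO and 2.05 in WT neutrophil-like cells, and 1.05 in cKO and 0.92 in WT over neutrophil-like cells, with Mrps21 (-0.074), Mrpl53 (-0.075), Mrpl34 (-0.097) and Mrps18a (-0.065) below 0. Cells assigned male gave 0.089, a median of 0.075, 2 members higher by 1.2-fold, -0.21 in T-like and -0.47 in neutrophil-like cells, 1.68 over neutrophil-like cells in cKO, 0.49 over T-like cells in WT, large to small ratios of 2.14 in WT epithelial-like and 2.07 in WT neutrophil-like cells, and Mrpl20 (-0.018) and Mrpl58 (-0.0020) below 0. Only 10 neutrophil-like cells per library were assigned female.

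Without the 5 highest members the sums gave 0.096 in epithelial-like, -0.054 in macrophage and monocyte-like and -0.50 in neutrophil-like cells, large to small ratios of 1.89 in cKO and 1.90 in WT epithelial-like and 1.199 in cKO and 1.47 in WT neutrophil-like cells, 0.82 over T-like cells in cKO, and 2.14 in cKO and 1.54 in WT over neutrophil-like cells. Without Mrpl33 and Mrps28, chosen after seeing the data, they gave -0.039 in macrophage and monocyte-like and -0.58 in neutrophil-like cells, large to small ratios of 2.13 in cKO and 2.21 in WT neutrophil-like cells, 0.84 in cKO and 0.58 in WT over T-like cells, and 2.30 in cKO and 1.61 in WT over neutrophil-like cells. Without Mrpl33 alone, also chosen after seeing the data, the large to small ratio of neutrophil-like cells was 1.43 in cKO and 1.71 in WT. Subunits by symbol alone gave 1.89 in cKO and 1.89 in WT. With 1 library per genotype, depth limits each value only through counting error, and the spread between mice is unknown.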

Other observations

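Among the clusters left unnamed for low depth, the one with Ube2c, Birc5 and Cdk1, genes of dividing cells, among its leading genes behind 2 immunoglobulin segments had the highest level of the family, at 8749 CPM in 79 cKO cells and 8931 CPM in 143 WT cells. It lay above every named class and every epithelial subcluster in both libraries. The largest unnamed cluster, of 480 cKO and 2461 WT cells with a median of 719 UMIs in cKO and 734 UMIs in WT, had 4679 CPM in cKO and 4821 CPM in WT. The other unnamed clusters with epithelial markers had 2583 CPM (cKO) and 2936 CPM (WT) in one, against 1477 CPM (cKO) and 1613 CPM (WT) in the next. Of the macrophage and monocyte-like clusters, one of low depth (110 cKO and 113 WT cells, median 1530.5 UMIs in cKO and 1361 UMIs in WT) had 5330.1 CPM in cKO and 5491 CPM in WT. A deeper one had 3166 CPM in cKO and 3125 CPM in WT. The epithelial marker genes also differed, at 4163 CPM in cKO and 5150 CPM in WT in the cluster of low depth. The deeper cluster had 593 CPM of them in cKO and 837 CPM in WT. The part of epithelial RNA in this difference was not tested.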
